A study of Mus musculus with 8 samples.

Results

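Genes of ribosome biogenesis and of the nucleolus were examined in whole lumbar intervertebral discs of mice with spondylitis and of naive mice. The set was a list of 45 genes by name, and a gene counted as measured when at least 1 probe set of the array named it and no other gene. That held for 44 genes and 91 probe sets, out of 18193 genes and 34945 probe sets. Mrto4 was named only together with other genes and has no value here. The list was proposed with earlier results of this same comparison in view, so the differences between the groups below are a description of the set, and its counts are not evidence for it.

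All mice were female BALB/c. The 5 immunized samples came from mice injected on days 0, 21 and 42 with cartilage proteoglycan (100 µg protein) emulsified with DDA adjuvant (2 mg), a regimen that leads to autoimmune inflammation of the spine. The 3 naive samples came from mice matched to them for age. Each sample was total RNA from 6 discs pooled together, and the labels call the samples biological replicates. For naive replicate 3 and for immunized replicate 1, the description is a sum of 2 sample numbers, and what that means for the animals used is not stated. A disc sample can hold cartilage, nucleus pulposus, attached bone marrow and infiltrating cells, and in such bulk RNA a change in the number of cells of a type and a change in RNA per cell cannot be told apart.

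A ribosome is assembled in the nucleolus. RNA polymerase I transcribes the long precursor of the ribosomal RNAs, small nucleolar ribonucleoproteins (snoRNPs) guide its chemical modification, and large protein complexes fold and cut it into the small and large subunits. Many of these genes are transcribed more strongly in growing and dividing cells, and the transcription factor Myc is a well-known activator of them.

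Every value is on the log2 scale, set to 0 at the middle of the 8 arrays; 1 unit is thus a factor of 2. Each gene is the mean of its probe sets. Because every probe set was centred, the level of one gene cannot be set against that of another. The cartilage genes Acan, Col2a1 and Comp and the nucleus pulposus keratin Krt19 each had 1 probe set, whose lowest array lay at 8 or more on the uncentred log2 scale, a coarse reading from the spacing of the deposited numbers. The samples were not alike. Naive replicate 1 had the widest spread over all probe sets (SD 0.41, against 0.21 to 0.32 in the other 7 samples). On the first principal component of all genes, immunized replicate 2 (-5.77) lay nearest to the naive samples (-32.2 to -28.1) and the other immunized samples lay between 14.4 and 32.2.

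Immunized discs had higher values for many of these genes, and by far the largest difference was that of Nop58, at 4.94-fold. The other differences were small. Ncl, Npm1, Ftsj3, Utp3 and Gnl2 differed by 0.55 to 0.73 on the log2 scale, and the remaining 38 genes by -0.27 to 0.47. Of the 44 genes, 35 had a difference above 0, against 43.9% of all genes, and the median difference was 0.22, against -0.035 over all genes. In limma's fit over all genes with Benjamini-Hochberg adjustment, 10 of the 44 passed an adjusted p of 0.05 on the higher side, where 4.46% of all genes did, and 0 on the lower side, where 4.68% did. Before adjustment, limma had 21 higher and 1 lower (p under 0.05). No share of all genes is given at this unadjusted limit. The unadjusted counts here and below thus have no background to be read against. The 5 immunized samples lay wholly above the 3 naive ones in 17 genes (9.39% of all genes) and below them in 3 (14% of all genes). Omitting naive replicate 1, 2 or 3 left 3, 0 or 1 past the threshold on the higher side, against 254, 17 or 121 of all genes. Omitting immunized replicate 1, 2, 3, 4 or 5 left 1, 12, 4, 6 or 1. Over all genes these omissions left 101, 1293, 414, 491 or 236 on that side. With naive replicate 2 omitted, 19 genes of the set were higher and 1 lower in limma before adjustment (p under 0.05). Over the same omissions the median difference of the set stayed between 0.19 and 0.26.

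**Figure D1:**
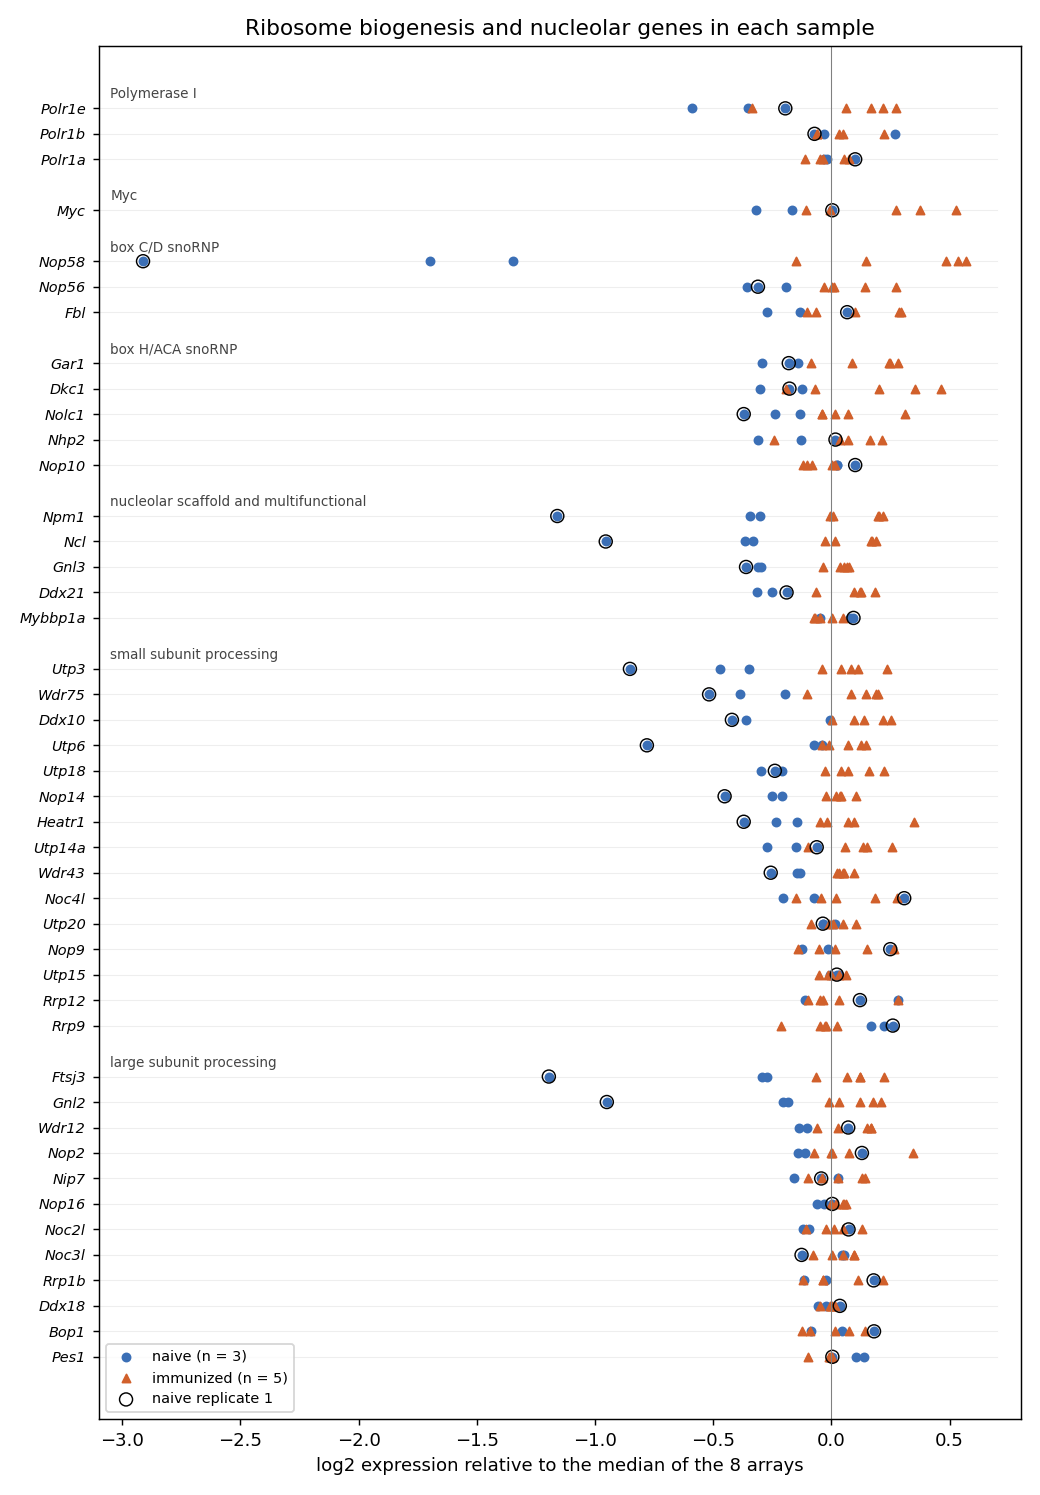
Log2 expression (x axis, 0 at the median array) for each measured gene (y axis), grouped by role. Circles are the 3 naive samples, triangles the 5 immunized samples, and a ring marks naive replicate 1. Naive replicate 1 is far to the left in Nop58 (-2.91), Ftsj3 (-1.20), Npm1 (-1.16), Ncl (-0.95) and Gnl2 (-0.95), and in most large subunit genes the groups overlap.

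Box C/D snoRNPs place methyl groups on ribosomal RNA. Their protein core includes Nop58, Nop56 and the methyltransferase fibrillarin, encoded by Fbl. Nop58 read -2.91, -1.70 and -1.35 in naive replicates 1 to 3 and 0.54, 0.15, 0.57, -0.15 and 0.48 in immunized replicates 1 to 5. The groups were separated by a gap of 1.20, and naive replicate 1 was the lowest sample by a wide margin. The group means were -1.99 ± 0.82 (SD, n = 3) and 0.32 ± 0.31 (SD, n = 5), a difference of 2.30 ± 0.33 (SE). Without naive replicate 1 this difference was 1.84. Nop58 rests on 1 probe set, so no second probe set can be set beside it.

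Nop56 read -0.31, -0.36 and -0.19 in the naive samples and 0.013, -0.033, 0.27, 0.0012 and 0.14 in the immunized samples. The groups did not overlap, and the naive samples lay close together (difference 0.37 ± 0.092, SE). Fbl read 0.067, -0.27 and -0.13 in the naive samples and 0.10, -0.067, 0.30, -0.10 and 0.29 in the immunized samples. Here the groups overlapped, immunized replicates 3 and 5 being high and naive replicate 1 lying among the immunized samples. Its 2 probe sets gave nearly the same difference, 0.21 and 0.22.

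Because Nop58 stands so far from the other genes, the 120 bases before its RefSeq start site (GRCm38.p6, chr1:59684886-59685005, plus strand) are shown, with the GC box GGGCGG, a common promoter element read on either strand, in capitals. The same stretch of Ncl (GRCm38.p6, chr1:86359456-86359575, minus strand) is shown for comparison, since both genes host snoRNAs.
Nop58: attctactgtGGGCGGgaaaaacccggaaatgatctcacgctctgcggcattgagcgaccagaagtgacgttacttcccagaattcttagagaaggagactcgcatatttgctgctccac
Ncl: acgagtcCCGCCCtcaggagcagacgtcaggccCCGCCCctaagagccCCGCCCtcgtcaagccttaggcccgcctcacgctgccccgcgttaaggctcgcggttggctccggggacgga
One copy stands in this stretch of Nop58 and 3 in that of Ncl.

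Nucleolin (Ncl) and nucleophosmin (Npm1) are abundant nucleolar proteins that bind ribosomal RNA and pre-ribosomes. Ncl read -0.95, -0.37 and -0.33 in the naive samples and 0.17, 0.015, 0.19, -0.026 and 0.17 in the immunized samples. Npm1 read -1.16, -0.34 and -0.30 in the naive samples and 0.22, 0.0061, 0.20, -0.0061 and 0.20 in the immunized samples. In both genes the groups were apart, the immunized samples lay close together, and naive replicate 1 was well below the other naive samples. The difference was 0.65 ± 0.14 (SE) for Ncl and 0.73 ± 0.19 (SE) for Npm1, and 0.45 for each without naive replicate 1.

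Gnl3 encodes nucleostemin, a GTP-binding nucleolar protein of dividing and stem cells. It read -0.36, -0.30 and -0.31 in the naive samples and 0.053, -0.034, 0.034, 0.074 and 0.067 in the immunized samples. Both groups were tight, with SDs of 0.034 (n = 3) and 0.044 (n = 5) around a difference of 0.36 ± 0.065 (SE). Without naive replicate 1 the difference was 0.34. The RNA helicase gene Ddx21 differed by 0.34 ± 0.079 (SE), also with no overlap, and its naive replicate 1 (-0.19) was the highest of the naive samples. Mybbp1a, which encodes a nucleolar Myb-binding protein, differed by -0.070 ± 0.071 (SE), and its groups overlapped. Ncl, Npm1, Gnl3 and Ddx21 were 4 of the 10 genes past the limma threshold, and Nop58 and Nop56 were 2 more.

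Box H/ACA snoRNPs convert uridines of ribosomal RNA to pseudouridine. Dyskerin, encoded by Dkc1, is the enzyme, Gar1, Nhp2 and Nop10 are its partners, and Nolc1 encodes a chaperone of snoRNPs. Gar1 read -0.18, -0.14 and -0.29 in the naive samples and 0.28, 0.087, 0.25, -0.087 and 0.24 in the immunized samples, with a narrow gap of 0.053 between the groups. Dkc1 read -0.18, -0.30 and -0.13 in the naive samples and 0.20, -0.19, 0.46, -0.068 and 0.35 in the immunized samples. Immunized replicate 2 of Dkc1 lay among the naive samples and immunized replicates 3 and 5 were the highest. Nolc1 read -0.37, -0.24 and -0.13 in the naive samples and 0.015, 0.072, 0.31, -0.038 and -0.038 in the immunized samples, with no overlap. The differences were 0.36 ± 0.10, 0.35 ± 0.15 and 0.31 ± 0.10 (SE), none past the threshold. Nhp2 differed by 0.19 ± 0.12 (SE) with overlap. Nop10 was lower in every immunized sample, but by only -0.11 ± 0.070 (SE).

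Of the RNA polymerase I subunits, Polr1a and Polr1b encode the large catalytic pair and Polr1e a smaller subunit. Polr1a read 0.10, -0.019 and -0.031 in the naive samples and -0.050, -0.11, 0.073, -0.037 and 0.054 in the immunized samples. Polr1b read -0.071, 0.27 and -0.032 in the naive samples and 0.048, -0.062, 0.032, -0.060 and 0.22 in the immunized samples. In both genes the groups overlapped throughout, with differences of -0.031 ± 0.076 and -0.019 ± 0.10 (SE). Polr1e read -0.19, -0.35 and -0.59 in the naive samples and 0.062, -0.33, 0.17, 0.22 and 0.27 in the immunized samples. Its immunized replicate 2 lay among the naive samples and the other 4 lay above them (difference 0.46 ± 0.15, SE). The probe sets of Polr1e gave 0.59 and 0.33, and only the first parted the groups.

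Myc read 0.0038, -0.32 and -0.17 in the naive samples and 0.27, -0.11, 0.38, -0.0038 and 0.53 in the immunized samples. Immunized replicates 1, 3 and 5 lay above the naive samples, while immunized replicates 2 and 4 lay below naive replicate 1. The difference was 0.37 ± 0.15 (SE), 1.30-fold, and did not pass the threshold. Its single probe set is the only measure of the gene.

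The small subunit is shaped by the processome, a large particle on the 5′ part of the precursor that holds the UTP proteins. Utp3 read -0.85, -0.35 and -0.47 in the naive samples and 0.039, -0.039, 0.11, 0.081 and 0.23 in the immunized samples. Wdr75, a UTP protein that also aids transcription of ribosomal DNA, read -0.52, -0.20 and -0.39 in the naive samples and 0.20, 0.081, -0.10, 0.19 and 0.15 in the immunized samples. Utp18 read -0.24, -0.30 and -0.21 in the naive samples and 0.16, 0.041, 0.068, -0.026 and 0.22 in the immunized samples. The groups did not overlap in these 3 genes, which with Nop14 were the other 4 past the threshold. Their differences were 0.64 ± 0.12, 0.47 ± 0.10 and 0.34 ± 0.079 (SE), and Nop14 differed by 0.34 ± 0.079 (SE).

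The RNA helicase gene Ddx10 read -0.42, -0.36 and -0.0050 in the naive samples and 0.22, 0.14, 0.25, 0.00099 and 0.095 in the immunized samples. Naive replicate 3 all but met the immunized samples. Utp6 read -0.78, -0.074 and -0.038 in the naive samples and 0.15, -0.040, 0.072, 0.13 and -0.010 in the immunized samples. Its difference of 0.36 ± 0.16 (SE) rested largely on naive replicate 1 and was 0.12 without that sample. Of the other 9 genes of small subunit processing, Heatr1 (0.34), Utp14a (0.26) and Wdr43 (0.23) had the largest positive differences, and Noc4l, Utp20, Nop9, Utp15 and Rrp12 lay between -0.071 and 0.047. Rrp9, which binds the U3 snoRNA, was the exception. It read 0.26, 0.17 and 0.22 in the naive samples and -0.048, -0.022, -0.027, -0.21 and 0.022 in the immunized samples, so the immunized samples lay wholly below the naive ones (difference -0.27 ± 0.077, SE, not past the threshold). Rrp9 was singled out after its values were seen.

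Over the 12 measured genes that build the large subunit, the median difference was 0.062, and 0 passed in limma (before adjustment, 2 higher and 0 lower). Ftsj3, a methyltransferase of the precursor, read -1.20, -0.27 and -0.29 in the naive samples and 0.12, 0.067, 0.22, 0.12 and -0.067 in the immunized samples. Gnl2, a GTPase that joins the maturing large subunit, read -0.95, -0.20 and -0.18 in the naive samples and 0.12, 0.17, -0.011, 0.21 and 0.030 in the immunized samples. In both genes the groups did not overlap, but naive replicate 1 carried much of the difference. It was 0.68 ± 0.20 (SE) for Ftsj3 and 0.55 ± 0.17 (SE) for Gnl2, and 0.38 and 0.30 without that sample.

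Pes1, Bop1 and Wdr12 encode the 3 parts of the PeBoW complex, which takes part in processing the precursor on the way to the large subunit. Wdr12 read 0.071, -0.14 and -0.10 in the naive samples and 0.026, -0.062, 0.17, 0.15 and 0.17 in the immunized samples. Pes1 read 0.0041, 0.14 and 0.10 in the naive samples and -0.0057, -0.0031, -0.099, -0.012 and 0.0029 in the immunized samples. Wdr12 differed by 0.15 ± 0.088, Bop1 by -0.043 ± 0.093 and Pes1 by -0.11 ± 0.069 (SE), none past the threshold. Nop2, a methyltransferase of large subunit RNA, read 0.13, -0.14 and -0.11 in the naive samples and 0.077, -0.075, 0.00047, -0.00047 and 0.34 in the immunized samples, with overlap. The other 7 genes, Nip7, Nop16, Noc2l, Noc3l, Rrp1b, Ddx18 and Bop1, lay between -0.043 and 0.089.

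**Figure D2:**
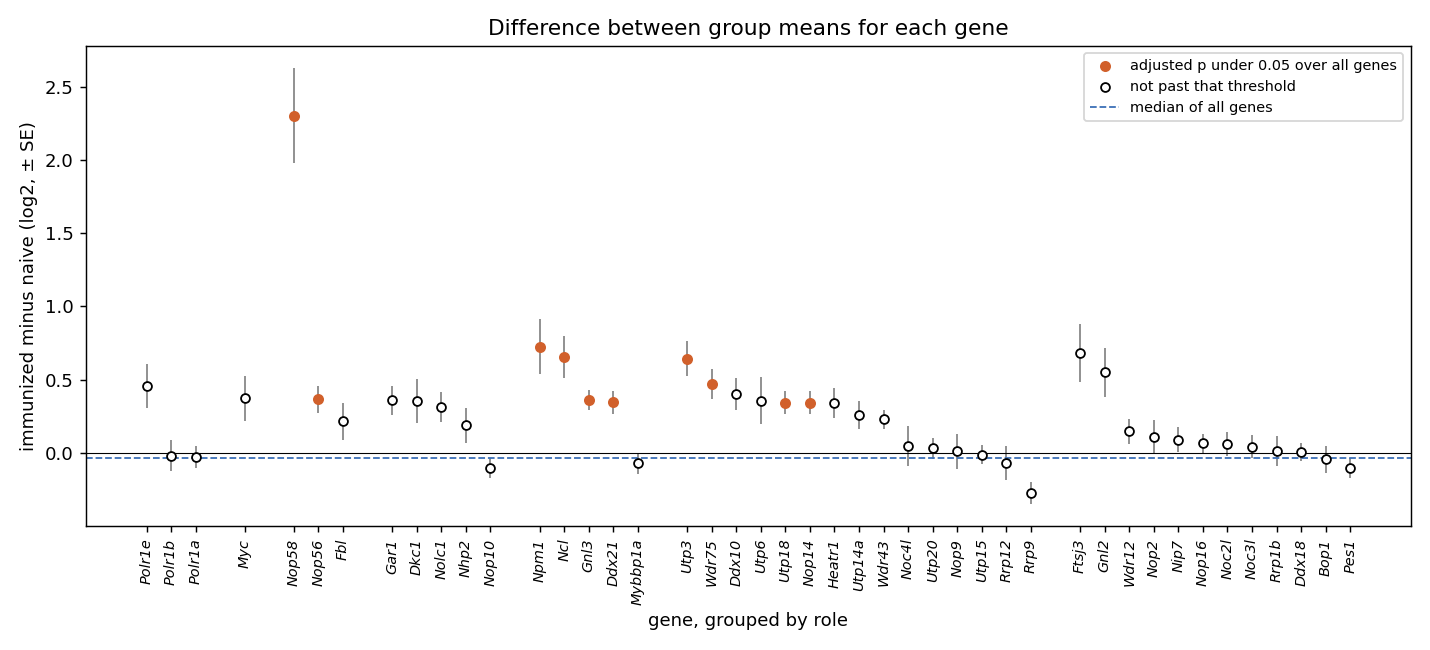
Difference between the immunized and naive means on the log2 scale (y axis) for each gene (x axis, grouped by role), with the standard error of the limma fit. Filled points passed an adjusted p of 0.05 over all genes and open points did not. Nop58 (2.30) stands alone, and most genes of the large subunit lie near 0 and near the median of all genes (-0.035, dashed line).

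Naive replicate 1 stood apart in several of these genes. In 6 of the 44 genes (Nop58, Ftsj3, Npm1, Gnl2, Utp6 and Ncl) it lay at least 0.5 below the mean of the other naive samples, and 6.9% of all genes did so. In 13 genes it lay at least 0.1 above that mean, led by Noc4l (0.45), Nop9 (0.32) and Polr1e (0.28), where 35.4% of all genes did so. It was the lowest of the 8 samples in 16 genes, against 21.6% of all genes. In the array's own control probe sets for RNA integrity, the 5′ minus 3′ value of Gapdh was 0.042 in naive replicate 1, and that of beta-actin was 0.044. Immunized replicate 5, the highest sample in 11 of the 44 genes, was the lowest array in both, at -0.57 for Gapdh and -0.19 for beta-actin. The other 7 arrays lay between -0.090 and 0.20 for Gapdh and between -0.024 and 0.17 for beta-actin. The signal for the 5′ end of 18S ribosomal RNA was high in naive replicate 1 (4.15) and in immunized replicates 1 (3.41) and 5 (2.97), and between -1.67 and 0.44 in the other samples. Naive replicate 1 also differed in marker means, picked out here after they were seen. In naive replicates 1 to 3 the mean was 0.64, -0.11 and 0.020 for 10 B cell precursor markers. It was -0.55, 0.23 and 0.066 for 8 skeletal muscle markers and 0.39, 0.14 and 0.17 for 6 bone markers. For 15 cartilage and disc markers the samples lay closer, at 0.39, 0.57 and 0.65. The part of all these values in the differences was not tested.

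Probe sets of the same gene did not always move alike. Of the 31 genes with several probe sets, 6 had probe sets whose differences were over 0.5 apart (Ncl, Nolc1, Dkc1, Npm1, Utp6 and Ddx10), against 21.1% of all such genes. In 14 of the 31 some probe sets had a positive and some a negative difference, a count with no share over all genes beside it. The median range of the differences within a gene was 0.25 in the 31 genes and 0.26 over all genes with several probe sets. Such disagreement was thus not particular to the set. Ncl had the widest range, wider than in 99.8% of all genes with several probe sets. Its probe set 1415773_at read -2.79, -0.90 and -0.73 in the naive samples and 0.39, 0.093, 0.50, -0.093 and 0.17 in the immunized samples, a difference of 1.68 ± 0.41 (SE). Probe set 1415772_at, with the lowest array also at 8 or more, read -0.11, -0.079 and -0.0070 in the naive samples and 0.020, 0.032, 0.0070, -0.031 and 0.13 in the immunized samples, a difference of 0.096 ± 0.079 (SE). Naive replicate 1 was far below the other samples in the first and close to them in the second.

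Npm1 showed the same split in a milder form, with 1.13 ± 0.29 (SE) for 1432416_a_at and 0.32 ± 0.11 (SE) for 1415839_a_at, and the groups were apart in both. In Dkc1 the probe sets gave 0.74, 0.41 and -0.089, in Nolc1 0.77, 0.24 and -0.066, in Utp6 0.65, 0.51 and -0.085, and in Ddx10 0.68 and 0.13. Tested singly over all 34945 probe sets in limma, 12 of the 91 passed on the higher side (3.61% of all) and 0 on the lower side (3.21% of all). Where in the transcript each probe set lies was not analysed here. Of the 91 probe sets, 55 had a lowest array at 8 or more, 28 from 4 to 8 and 4 below 4, and 4 could not be placed. Those not placed were the only probe sets of Nop58 and of Ftsj3, 1450087_a_at of Nolc1 and 1451378_at of Utp6.

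**Figure D3:**
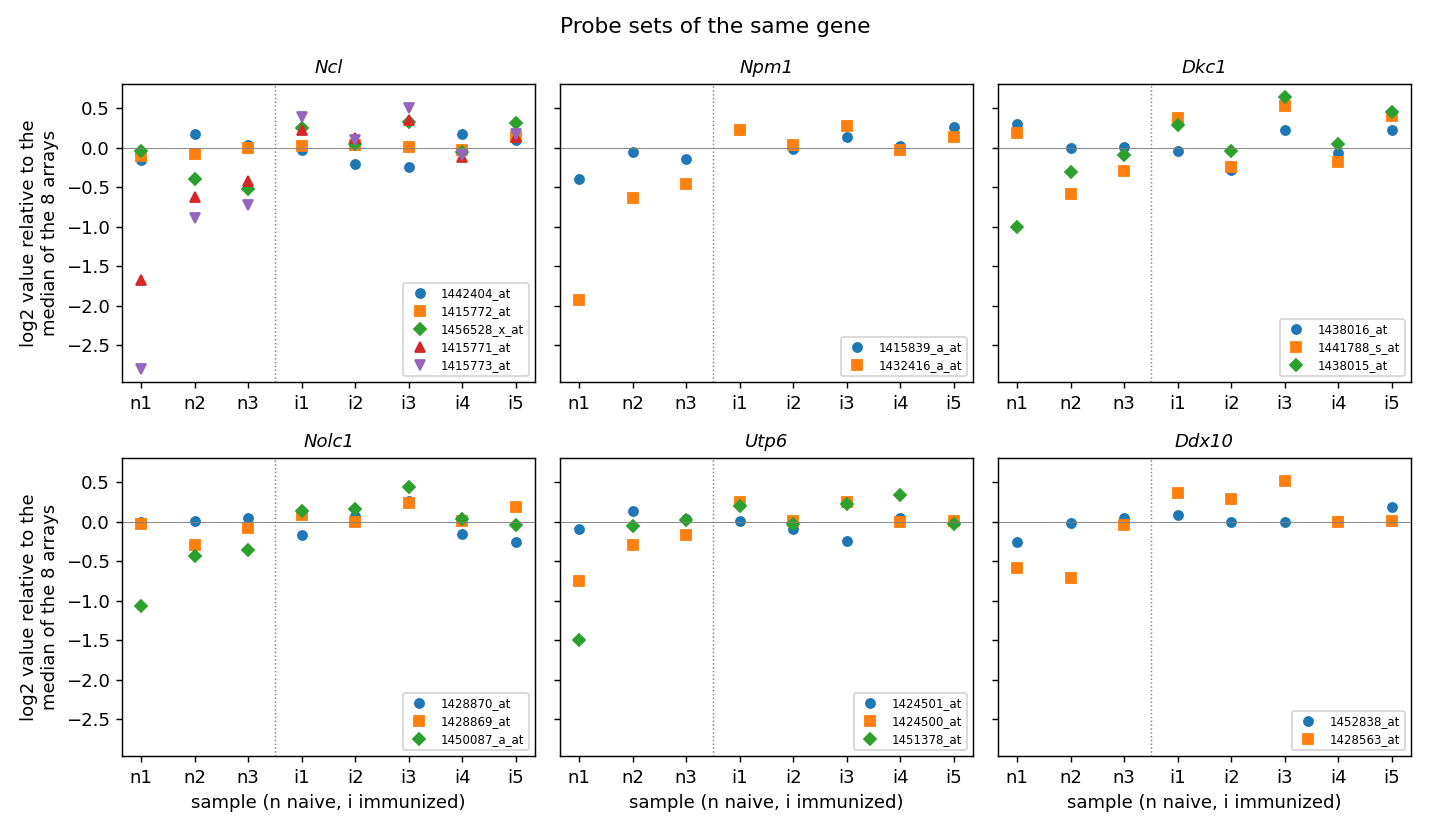
Log2 value relative to the median of the 8 arrays (y axis) of each probe set in the 3 naive (n1 to n3) and 5 immunized samples (i1 to i5; x axis) for the 6 genes whose probe sets differ by over 0.5; each marker is 1 probe set. In Ncl, 2 probe sets reach -2.79 and -1.67 in naive replicate 1 while the other 3 stay between -0.15 and -0.043 there.

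Other genes of ribosome biogenesis, listed by function and not among the 45, differed less. Of 149 such genes measured, 15 passed on the higher side and 0 on the lower side in limma (before adjustment, 38 higher and 10 lower), and the median difference was 0.084. The 15 included Esf1 (1.17 ± 0.17, SE), Mphosph10 (0.57 ± 0.099) and Utp23 (0.47 ± 0.087), all of small subunit processing. They also included Gtpbp4 (0.67 ± 0.094), Rpf2 (0.49 ± 0.095) and Rsl1d1 (0.67 ± 0.16), of the large subunit, and Taf1d (0.55 ± 0.11), a factor of polymerase I. Esf1 read -1.34, -0.78 and -0.69 in the naive samples and 0.37, 0.46, 0.28, -0.099 and 0.16 in the immunized samples, with naive replicate 1 the lowest as in Nop58. By class, 7 of 48 small subunit, 5 of 51 large subunit, 1 of 14 polymerase I, 2 of 26 exosome and nuclease genes and 0 of 10 other snoRNP genes passed on the higher side. For the snoRNP genes limma had 3 higher and 1 lower before adjustment. The 15 became 4, 0 or 2 when naive replicate 1, 2 or 3 was omitted, and 2, 19, 7, 10 or 3 when immunized replicate 1, 2, 3, 4 or 5 was. The counts over all genes on the higher side at these omissions are given above. Without immunized replicate 2, where 1710 of all genes passed on the lower side, 2 of the 149 did. With naive replicate 2 omitted, limma had 38 higher and 6 lower before adjustment.

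Of 79 listed genes of cytosolic ribosomal proteins, 44 were measured. Of these 44, 0 passed in limma (before adjustment, 3 higher and 1 lower), the median difference was -0.021, and the list mean lay between -0.043 and 0.029 in all 8 samples. The partners and antagonists of Myc were mostly near 0 (median 0.025 over 14 genes). Among them, Mxd1, a repressor that competes with Myc for Max, rose by 0.85 ± 0.23 (SE) and Mycbp2 by 0.29 ± 0.073 (SE). Of 24 genes of metabolism and protein folding that respond to Myc, Hspd1, a mitochondrial chaperone, rose (0.52 ± 0.13, SE), and the median was 0.068.

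Several lists put the samples in nearly the same order as the set, apart from naive replicate 1, among them cell cycle genes and granulocyte precursor markers. The first principal component of all genes had nearly this order too. There immunized replicates 2 (-5.77), 4 (14.4), 1 (21.3), 5 (30.0) and 3 (32.2) followed one another, all above the naive samples. The shared order is thus not particular to the set or to these lists. All 20 measured cell cycle genes had a positive difference, with a median of 0.43. One of them passed the threshold, the proliferation marker Mki67 (0.95 ± 0.23, SE, groups apart). The mean of these 20 genes was 0.15, -0.41 and -0.35 in naive replicates 1 to 3 and 0.26, -0.30, 0.79, -0.10 and 0.54 in immunized replicates 1 to 5. The mean of the 44 genes was -0.25, -0.17 and -0.17 in the naive samples and 0.078, -0.028, 0.12, 0.012 and 0.14 in the immunized samples. In both means, naive replicates 2 and 3 were below all immunized samples, immunized replicates 2, 4 and 1 followed in that order, and immunized replicates 3 and 5 were the highest. Naive replicate 1 was the lowest sample for the set but lay among the immunized samples for the cell cycle. The range of the erythroid marker mean (9 genes, 0 past the threshold) was -0.36 to 0.34 in naive and -0.38 to 0.91 in immunized samples. For 10 granulocyte precursor markers, of which 0 passed, it was -0.80 to 0.014 and -0.19 to 0.64, and outside naive replicate 1 the samples were again in nearly the same order as for the set. So they were for the 24 Myc-responsive metabolism genes, with means of 0.068, -0.061, 0.18, -0.026 and 0.14 in immunized replicates 1 to 5. The erythroid mean read 0.27, -0.38, 0.91, -0.25 and 0.32 there, nearly that order too. Its naive replicates 2 (-0.36) and 3 (-0.16) did not lie below all of these. Before adjustment limma had 0 erythroid markers in either direction, and 9 granulocyte precursor markers higher and 0 lower. Macrophage markers (6 of 9 past the threshold) ranged from -0.91 to -0.60 and from 0.029 to 0.87 in naive and immunized samples. Of 8 plasma cell markers, 5 had a positive difference and 2 passed, led by the antibody joining chain gene Jchain (2.99 ± 0.27, SE). Their mean ranged from -0.57 to -0.19 in naive and from 8.7e-05 to 0.12 in immunized samples. Without Jchain, a choice made after seeing the data, it was 0.063, -0.092 and -0.20 in the naive samples and -0.040 to 0.12 in the immunized samples, and the groups overlapped. Cartilage and disc markers (5 of 15 lower) ranged from 0.39 to 0.65 in naive and -0.75 to 0.30 in immunized samples. Since values are centred, no marker can be said to be absent, and the part of these cell types in the differences was not tested. Immunized replicate 3 was the highest sample in 12 of the 44 genes (16.0% of all genes) and immunized replicate 5 in 11 (11.4% of all genes).

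**Figure D4:**
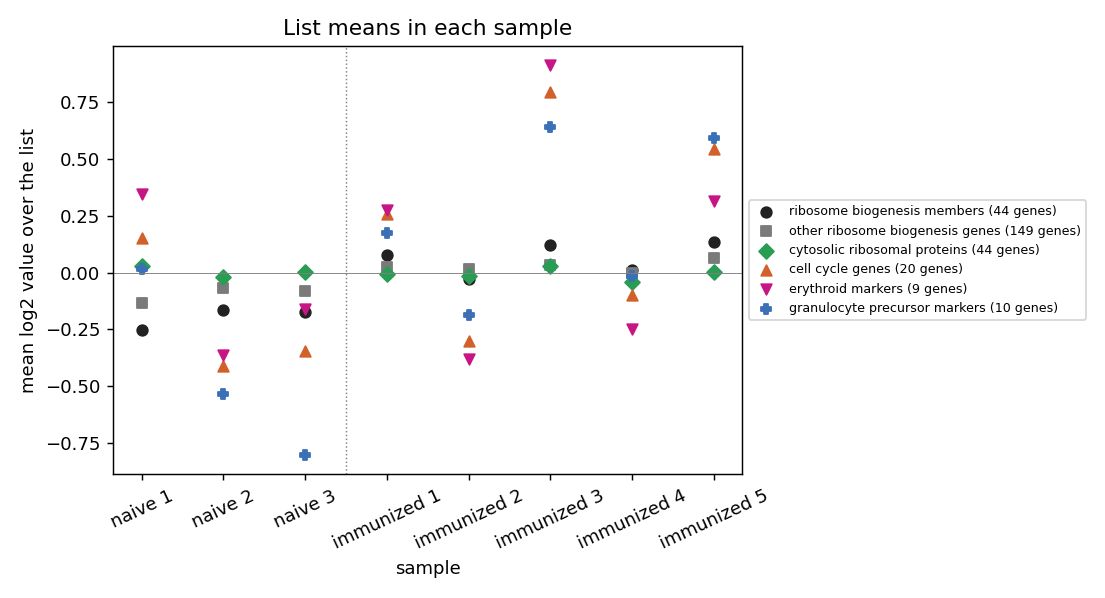
Mean log2 value (y axis) over the genes of 6 lists in each of the 3 naive and 5 immunized samples (x axis); each marker is 1 list. The mean of the 44 ribosome biogenesis genes lies between -0.25 and -0.17 in naive and between -0.028 and 0.14 in immunized samples, the 44 measured ribosomal protein genes stay near 0, and the cell cycle and granulocyte precursor lists are highest in immunized replicates 3 and 5.

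Some features of the set are read from the genome and not from the arrays. The set itself was proposed with this comparison in view, so its shares are a description. In RefSeq (GRCm38.p6), snoRNA genes lie within 6 of the 44 genes (Nop58, Nop56, Ncl, Gnl3, Dkc1 and Wdr43), or 13.6%, against 1.89% of 16470 measured protein-coding genes; strand was not compared. The table lists Snord70 and Snord11 within Nop58, Snord110 and Snord57 within Nop56, Snora75 and Snord82 within Ncl, and Snord69 and Snord19 within Gnl3. The median difference was 0.36 over these 6 host genes, 0.13 over the other 38 genes of the set and -0.0029 over the other 306 host genes.

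Promoters were searched for 38 of the 45 genes, those with a RefSeq entry of 250 bases before to 50 bases after the start site, on both strands. The E-box CACGTG, the best known binding sequence of Myc, was found in 6 of the 38 (15.8%), against 8.91% of 17491 protein-coding genes. Its variant CACGCG was found in 13 (34.2%, against 13.7%), the ETS factor core CCGGAAG in 12 (31.6%, against 12.9%) and the GC box GGGCGG in 29 (76.3%, against 49.2%). The CCAAT box was found in 15 (39.5%, against 42.3%) and TATAAA in 2 (5.26%, against 14.8%). A match is a description of the letters and not of a bound site.

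Those with the E-box were Mybbp1a, Utp18, Utp20, Wdr43, Pes1 and Nop2. It lay before the start site in Nop2 and Utp18, and both stretches are shown with the E-box in capitals, for Nop2 at chr6:125131799-125131852 on the plus strand and for Utp18 at chr11:93885767-93885810 on the minus strand (GRCm38.p6).
Nop2: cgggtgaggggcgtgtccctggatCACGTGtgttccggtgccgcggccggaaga
Utp18: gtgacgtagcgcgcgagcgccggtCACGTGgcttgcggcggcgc
The E-box begins 60 bases before the start site in Nop2 and 20 bases before it in Utp18. Utp18 differed by 0.34 and Nop2 by 0.11 between the groups. The median was 0.071 over the 6 genes with CACGTG and 0.26 over the 31 measured genes whose promoter lacked it. With CCGGAAG the order was the other way, 0.33 over 12 genes against 0.064 over 25. With CACGCG the medians were 0.089 over 13 genes against 0.28 over 24, and with the CCAAT box 0.089 over 15 against 0.27 over 22. With the GC box they were 0.19 over 29 against 0.15 over 8, and with TATAAA 0.12 over 2 against 0.19 over 35. A link between a motif and the differences was not tested.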

How the data were processed

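Total RNA from 8 disc samples was hybridized to Affymetrix arrays. The authors' deposited values are log2 expression from RMA, per the submitters' processing notes, which give no version. Each probe set of the deposited table has a median of 0 (within 5.0e-07), a centring that no label records. It leaves group differences intact and removes levels. No batch is known. With 8 arrays, precision is limited. Gene names came from the platform annotation, and 64 control probe sets were left out. The groups were compared by limma 3.58.1 under R 4.3.3, with eBayes on a group-mean lmFit, two-sided and without covariates. P-values were adjusted by Benjamini-Hochberg over 18193 genes with a threshold of 0.05, and the fit was tested on simulated data. P-values measure the spread between these samples. The 45 genes and all other lists were chosen with earlier results of these data known. Values in every sample are given for Myc, Ncl, Npm1 and Fbl and for the genes of each role class with the largest absolute difference (all of a class of up to 3, 3 of a class of 5, 5 of a larger class). Of each pathway list up to 4 genes past the threshold with the largest moderated t are named. Other choices are stated in the text. The closing section gives the alternatives tried.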

Additional observations from a re-analysis of the deposited data

Results flagged for a closer look

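Among the immunized samples of the 44 genes, 1 gene had a sample far from the other 4. In Pes1, immunized replicate 3 read -0.099, and the nearest of the others read -0.012, so that the gap took up 0.85 of the whole range of the group (Dixon's critical value is 0.71 for 5 samples). By chance about 1 in 20 groups would be marked this way, and groups of 3, such as the naive samples, were not examined.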

How the results depend on the processing

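With all samples, 10 of the 44 genes passed in limma on the higher side and 0 on the lower side, and 19 and 0 of the 251 pathway genes did. The trended and robust variance model gave 5 genes of the set higher (Nop58, Gar1, Ddx21, Utp18 and Ddx10), and 768 of all genes. Array weights gave 22 higher and 1 lower in the set, and 58 higher and 9 lower among pathway genes. Over all genes they gave 2495 higher and 3405 lower. Without both samples with joined numbers 0 and 0 passed on the higher side (17 and 37 at an unadjusted p under 0.05 in limma). Over all genes 0 passed there on either side. Without naive replicate 1 and immunized replicates 3 and 5, 1 and 2 passed on the higher side, and 173 of all genes. In the replicate block, immunized replicates 4 and 5 have no naive sample of the same number. Its differences thus rest on the 3 same-numbered pairs alone, with fewer arrays. This block gave 0 and 0 (18 and 37 unadjusted), and 6 of all genes higher. Deviations of same-numbered samples correlated at -0.047, 0.24 and -0.10. Each correlation runs over all genes for a single pair of arrays, and differently numbered pairs were not set beside them. They cannot settle whether the numbers pair the samples, and the labels record no pairing. Leaving out 1 sample gave 0 to 12 genes of the set higher and 0 lower, 0 to 27 pathway genes higher and 0 to 3 lower. Single probe sets gave 1 pathway probe set lower. The median difference of the set lay between 0.17 (single probe sets) and 0.26 in all settings run. Of 747 recomputed differences of single genes, 3 moved by more than the spread between replicates, and 0 that had passed changed sign. Omitting 1 sample cannot move a difference past that limit, and the trended and robust model leaves the differences as they are. The count of 3 thus says little about how steady the differences are. Utp6, at 0.36 with all samples and 0.12 without naive replicate 1, counted as not moved. Quantile normalization, array centring and the omission of _x_at and _s_at probe sets or of probe sets below 4 gave 9, 11, 10 and 9 genes of the set higher. Over all genes they gave 541, 885, 774 and 852 higher and 369, 725, 830 and 872 lower. The genes that passed were not all the same. Quantile normalization lost Nop56, Ddx21 and Utp18 and gained Gnl2 and Ftsj3. Without _x_at and _s_at probe sets Ncl was lost and Polr1e gained. Centring gained Ddx10, and the omission of probe sets below 4 lost Utp18. The causes were not tested.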

Other observations

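The array also carries control probe sets for 18S ribosomal RNA, the RNA of the small subunit. The 5′ probe set read 4.15, -1.67 and -0.82 in naive replicates 1 to 3 and 3.41, -0.77, -0.44, 0.44 and 2.97 in immunized replicates 1 to 5. The middle probe set read 1.09, -0.70 and -0.57 in the naive samples and 1.45, 0.030, -0.14, -0.030 and 0.84 in the immunized samples. Naive replicate 1 and immunized replicates 1 and 5 were the high samples in both, so the groups overlapped. The probe set for the 3′ end ranged from -0.65 to 0.24 in naive and from -0.22 to 1.15 in immunized samples.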
